A study of Arabidopsis thaliana with 8 samples.

Results

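Seedlings of the Arabidopsis line prp43a and of wild type were compared after 16 h at 38 °C. The genes described were those with at least 1 TPM in at least 2 of the 4 heat libraries. (TPM is the share of a gene among all transcripts of a library, corrected for gene length.) The level was reached by 18230 of the 27655 gene rows, of which 18077 were encoded in the nucleus, 102 in the mitochondrion and 51 in the chloroplast. Their median level was 17.0 TPM, and 11890 of them had a mean of at least 10 TPM. Both genotypes were in the Columbia (Col-0) background and were 7 days old when treatment began. They had been raised at 22 °C, with 16 h of light and 8 h of dark, on agar with sucrose. The mutant carried 1 T-DNA insertion allele, prp43a-1, in PRP43a, which the title of the series calls a component of the disassembly of the splicing machinery. With 1 allele and no complemented line measured here, an effect of another site in that line cannot be told apart from that of the insertion. Each group held 2 libraries of whole seedlings, named biological replicates. Another 2 libraries of each genotype, at control temperature, entered the comparison through the shared estimate of the spread.

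In yeast and animals, Prp43 is an RNA helicase of the DEAH family, named for the amino acids of its ATP-binding motif. It takes apart the spliceosome once the intron has been cut out, releasing the lariat intron and freeing the small nuclear ribonucleoproteins (snRNPs) for another round, and it also acts in the making of ribosomes. High temperature disturbs splicing and protein folding in plants, and heat shock factors then switch on the chaperone genes.

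The heat libraries held 4071041 to 4524216 reads, recovered from the TPM values, so 10 TPM of a gene whose exons span 1.5 kb meant 37.0 to 41.1 reads. Photosystem and Rubisco genes together made up 5.17 to 5.98% of TPM in the 4 libraries. The root marker PYK10, a beta-glucosidase of root endoplasmic reticulum bodies, stood between 107 and 151 TPM. The root stem cell factor PLT2 was listed at 0 in all 4 libraries, and so were the seed genes CRU3, OLEO1 and GEA6. The root-hair expansin EXPA7 and the endodermal gene CASP1 stayed under 1 TPM. Of the 7 root markers listed, 2 reached the level required, PYK10 and SHR, and of the 4 seed genes listed 0 did.

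The annotation held 2 homologs of Prp43, AT3G62310 and AT2G47250, both annotated as RNA helicase family proteins. Which of them is the PRP43a of the labels is not given in the sources used here. AT3G62310 lay on chromosome 3, 23057240 to 23060731, and AT2G47250 on chromosome 2, 19399648 to 19403044, both on the minus strand with 6 introns (TAIR10.1). Their coding sequences, 2181 and 2190 bases long, were identical at 86.8% of 2178 aligned positions, so the counting of reads could have mixed them. The longest run of bases that both transcripts shared was 59, and no window of 75 bases, the length of a read, was the same in both. The stretch that encodes the DEAH motif is shown because that motif names the family. The 15 of its 108 positions at which the genes differed are in capitals (TAIR10.1 from RefSeq, chr3:23059717-23059824 and chr2:19402183-19402290, minus strand, 5′ to 3′).
AT3G62310: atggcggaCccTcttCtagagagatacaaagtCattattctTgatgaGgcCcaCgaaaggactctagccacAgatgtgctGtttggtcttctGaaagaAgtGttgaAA
AT2G47250: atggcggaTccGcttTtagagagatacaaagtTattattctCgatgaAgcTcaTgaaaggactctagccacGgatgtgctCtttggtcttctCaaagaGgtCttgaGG

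In heated wild type, AT3G62310 stood at 64.6 and 72.4 TPM. The heated prp43a libraries had 10.3 and 8.24 TPM. The groups did not overlap. The means were 68.5 ± 5.49 TPM and 9.26 ± 1.44 TPM (SD, n = 2 each), so that heated mutant seedlings held 13.5% of the wild-type level. The log2 fold change was -2.76 (SE 0.16, 95% interval -3.13 to -2.40, limma adjusted p = 0.00023). A change here is on the log2(TPM + 1) scale, which understates changes of low genes, and a gene was called at an adjusted p below 0.05. The mutant values rested on 76 and 62 reads, against 530 and 592 in wild type. These reads were counted over the whole gene, and where in the transcript they lay was not analysed here. In whole seedlings, fewer cells of a type and less RNA per cell cannot be told apart. With the 4 heat libraries alone and the same filter, the log2 fold change stayed at -2.76 but the call was lost (limma adjusted p = 0.60, the highest of 21 alternatives, which began at 7.3e-08).

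Reads counted to AT3G62310 were thus still present in heated mutant seedlings. At control temperature the gene had stood at 26.7 and 29.8 TPM in wild type against 1.68 and 1.44 TPM in prp43a, or 5.52% of wild type. The genotype effect after heat minus that at control temperature was 0.75 on the log2 scale (95% interval 0.24 to 1.26), which did not pass (limma adjusted p = 0.70). Over the alternatives, this difference ran from -0.03 to 1.24, with adjusted p from 0.50 to 1.00. A smaller relative loss after heat was thus not shown.

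The other homolog, AT2G47250, stood at 98.4 and 90.1 TPM in heated wild type against 101 and 103 TPM in heated prp43a. The mutant libraries lay above the higher wild-type library by less than the wild-type libraries differed from each other. The log2 fold change was 0.12 (SE 0.10, 95% interval -0.10 to 0.33, limma adjusted p = 1.00). In the control libraries AT2G47250 had averaged 33.4 ± 1.77 TPM for wild type against 51.9 ± 3.05 TPM for the mutant (SD, n = 2 per group). The difference between the effects after heat and at control temperature was -0.51 (95% interval -0.81 to -0.20) and did not pass (limma adjusted p = 0.64). Per length, heated prp43a seedlings held less AT3G62310 than AT2G47250 transcript in both libraries, and so did heated wild type, by a smaller margin.

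**Figure D1:**
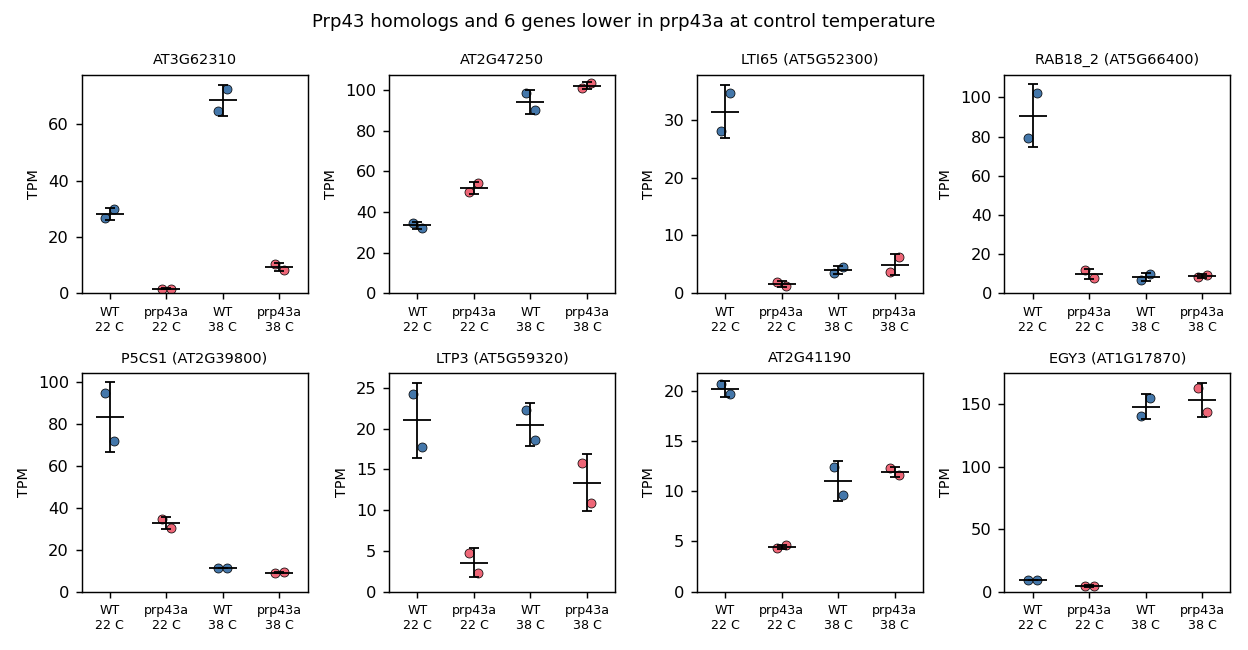
TPM (linear axes from 0) of the 2 Prp43 homologs and of 6 genes called lower in prp43a at control temperature, in each of the 8 libraries. Points are libraries, horizontal bars are means and error bars are SD (n = 2); AT3G62310 was low in prp43a at both temperatures, while LTI65 and RAB18_2 were apart between the genotypes at 22 °C and overlapped at 38 °C.

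The genes around AT3G62310 did not show its difference. Of the 5 annotated genes on either side, 6 were expressed at the level required and 0 were called, with a median log2 fold change of 0.05 and a range of -0.07 to 0.19. DUF7 (AT3G62300), an agenet domain gene on the plus strand whose end at 23057283 overlaps the end of the AT3G62310 model, had 16.6 and 20.4 TPM in wild type against 15.0 and 23.6 TPM in prp43a. Its wild-type libraries lay between its mutant libraries.

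Over the whole table, 1 of 19697 genes passed the limma test after heat (0.00508%), lower in prp43a, and this was AT3G62310. In all, 899 genes (4.56%) had an unadjusted p below 0.05, among them 861 of the 18230 expressed genes (4.72%). The groups did not overlap for 5586 of the 18230 genes (30.6%), with 3544 higher in prp43a (19.4%) and 2042 lower (11.2%). Higher genes were thus 63.4% of these, but 51.0% after median-of-ratios scaling of the 4 heat libraries (2880 higher, 2769 lower). The median log2 fold change was 0.03 as deposited and 0.00 after that scaling. Such scaling centres each library on its median ratio, so a median near 0 and a near-even split were set in advance. The split thus depended on the scaling, and whether there is a direction over all genes cannot be decided here. With 2 libraries a group, an exact permutation test cannot give a two-sided p below 0.333, and the limma p-values lean on the spread shared by all genes.

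Libraries of different genotype were as alike as replicates. Of the 11890 genes averaging 10 TPM or more, 37 were at least 2-fold apart in TPM + 1 between the wild-type replicates. Between the prp43a replicates there were 23. The 4 pairs of a wild-type and a prp43a library had 19, 21, 26 and 34 such genes. AT3G62310 was apart in each of those 4 pairs. Across genes, log2(TPM + 1) correlated at r = 0.981 and 0.983 within genotypes and at 0.982 to 0.984 between them.

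A missing call does not show equal levels, but the intervals bound most differences on the log2(TPM + 1) scale. For a low gene, a 2-fold change of TPM + 1 is a larger change of TPM. The 95% interval of the log2 fold change lay inside a 2-fold change of TPM + 1 for 16201 of the 18230 genes (88.9%). This held for 59.5% of the 3811 genes with a mean under 5 TPM, 87.7% of the 2529 genes from 5 to 10 TPM, 98.0% of the 8218 genes from 10 to 50 TPM, and 99.8% of the 3672 genes at 50 TPM or more. The median interval reached 0.40 to either side on the log2 scale. Fitted differences of at least 2-fold in TPM + 1 were found for 116 genes, 63 higher and 53 lower. Of these, 101 were under 5 TPM, 12 from 5 to 10 TPM, 3 from 10 to 50 TPM and 0 at 50 TPM or more.

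**Figure D2:**
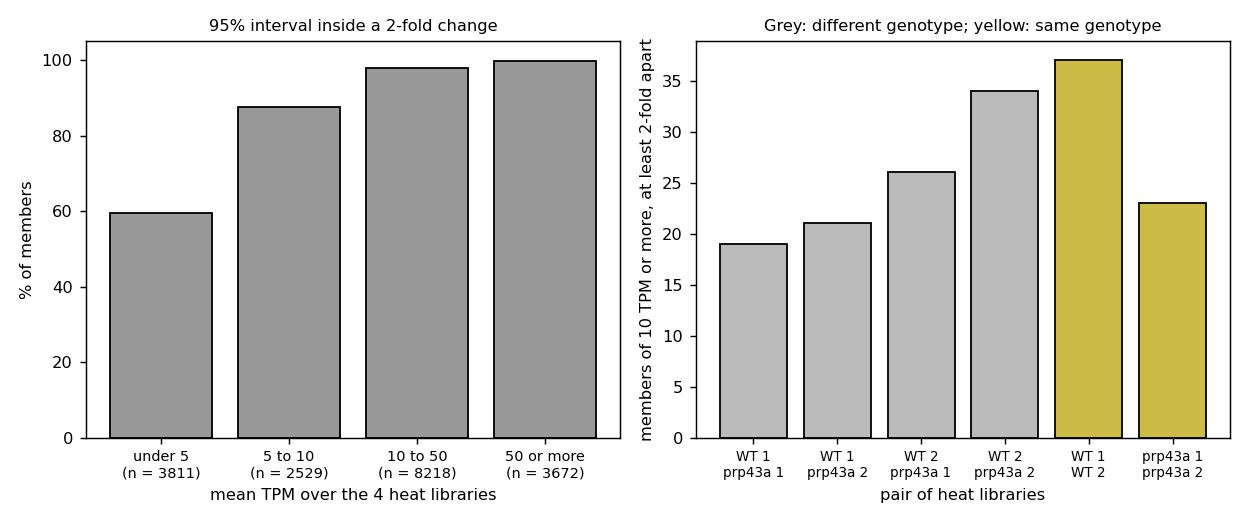
Left, the percentage of genes in each class of mean TPM whose 95% interval lay inside a 2-fold change. Right, the number of genes averaging 10 TPM or more that were at least 2-fold apart in each pair of heat libraries, with pairs of the same genotype in yellow and pairs of different genotype in grey. The share rose from 59.5% under 5 TPM to 99.8% at 50 TPM or more, and the pair of wild-type replicates had the most genes apart, 37.

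**Figure D3:**
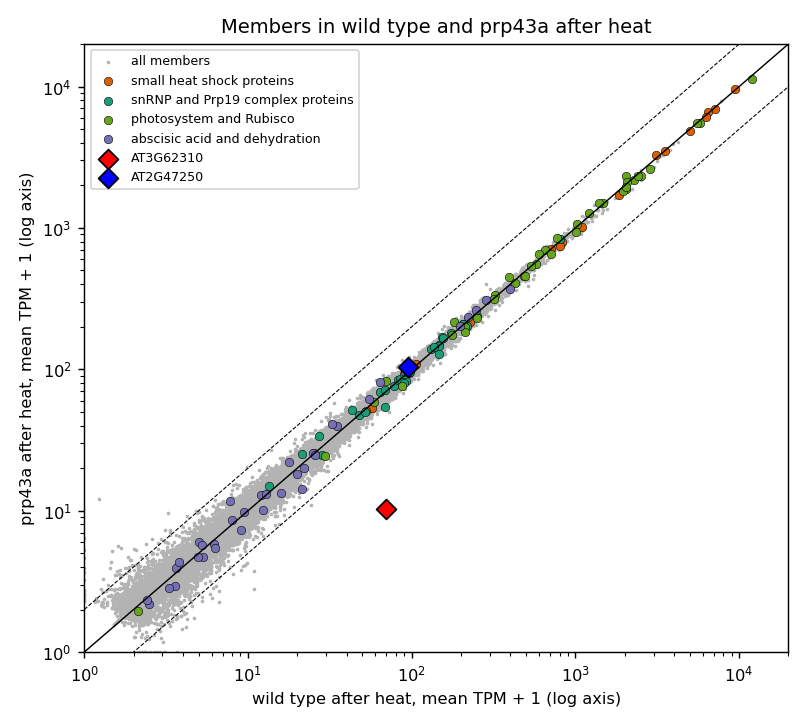
Mean TPM + 1 of each of the 18230 genes in prp43a against wild type after heat (both axes log scale, n = 2 libraries each). The solid line marks equal levels and the dashed lines a 2-fold difference; AT3G62310 lies far below the lower dashed line, and the marked small heat shock protein, snRNP, photosystem and abscisic acid genes lie between the dashed lines.

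The partners of Prp43 and the other helicases of the spliceosome were measured in all 17 listed loci, of which 1, AT3G62310, was called lower and 0 were called higher. Of the 17 log2 fold changes, 15 were above 0 and 2 below, beside 10491 above and 7739 below over all expressed genes. The list median was 0.06, beside 0.03 over all expressed genes. STIPL1 and ILP1_2, homologs of the partner proteins that in animals and yeast bring Prp43 to the spliceosome, overlapped between the genotypes. STIPL1 had 15.0 and 15.8 TPM in wild type against 16.7 and 15.7 TPM in prp43a, and ILP1_2 15.5 and 15.8 TPM against 17.2 and 15.1 TPM. The helicase AT3G26560, homolog of the yeast Prp22 that releases the spliced messenger, stood at 31.1 and 37.2 TPM against 37.4 and 36.9 TPM. DBR1, which opens the lariat introns that disassembly sets free, had 5.50 and 6.35 TPM in wild type against 7.40 and 7.45 TPM in prp43a. The DBR1 groups did not overlap, yet the log2 difference of 0.29 did not pass (95% interval -0.16 to 0.73, limma adjusted p = 1.00).

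Among 31 genes of snRNP and Prp19 complex proteins, the parts that disassembly recycles, 0 were called and the median was 0.02. The groups were apart for 13 of the 31 (41.9%), 8 higher and 5 lower, beside 30.6% over all expressed genes. AT3G11500, annotated in the small nuclear ribonucleoprotein family, had 74.0 and 61.4 TPM in wild type against 45.3 and 60.7 TPM in prp43a. SAD1, an Sm-like protein of the U6 snRNP, had 41.4 and 43.0 TPM in wild type against 50.7 and 50.5 TPM in prp43a. Their log2 differences of -0.36 and 0.26 had unadjusted p of 0.037 and 0.042 and limma adjusted p of 1.00. Each of the 31 intervals lay inside a 2-fold change of TPM + 1.

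Of 25 SR proteins and other splicing regulators 0 were called, with a median of 0.01 and values from -0.16 to 0.20. SR45, an SR-related protein that guides splice-site choice, had 32.1 and 35.8 TPM in wild type against 38.3 and 39.8 TPM in prp43a. RSZ22, a zinc-knuckle SR protein, had 34.8 and 33.5 TPM against 41.3 and 37.5 TPM. Both were higher in each mutant library, by 0.20 on the log2 scale, without passing. Of 35 ribosome biogenesis genes 0 were called, with a median of 0.01. RH36, an RNA helicase of ribosome assembly, had 45.6 and 50.3 TPM against 57.9 and 55.2 TPM, a log2 difference of 0.23 (95% interval -0.05 to 0.52). Of 20 RNA decay genes 0 were called, with LSM1A, an Sm-like protein of the decapping complex, at 20.9 and 22.4 TPM against 29.1 and 25.4 TPM.

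The median difference was small in genes with and without introns. The median log2 fold change was 0.05 for the 2432 expressed genes with no intron, 0.03 for 2307 genes with 1 intron, and 0.03 for 394 genes with 21 or more introns. The classes between them had medians of 0.02 to 0.03. These are levels summed over a gene, and retained introns or splice-site choice were not analysed here.

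No chaperone gene was called after heat. All 17 small heat shock proteins, which hold unfolding proteins, were expressed, with a median of -0.04 and a range of -0.12 to 0.08, and 0 were called. Their summed share of TPM was 5.36 and 3.99% in wild type and 4.61 and 4.64% in prp43a. The mutant libraries lay between the wild-type libraries. HSP18.2 had 11866 and 7096 TPM in wild type against 9488 and 9827 TPM in prp43a, a log2 difference of 0.07 (95% interval -0.33 to 0.48). That interval rests on a spread pooled over all 4 groups. The SD was 3373 TPM in heated wild type and 239 TPM in heated prp43a, so the interval can understate the wild-type spread. HSP21, the small heat shock protein of the chloroplast, had 5457 and 4547 TPM against 5104 and 4586 TPM. Several members are close in sequence, so the split of reads among them is uncertain. The groups were apart for 1 of the 17 (5.88%), beside 30.6% over all expressed genes. Without wild-type heat replicate 1 the list median was 0.11 and without wild-type heat replicate 2 it was -0.20, so its sign rested on which of the wild-type libraries was kept.

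Of 25 HSP70, HSP90 and HSP101 chaperones and co-chaperones 0 were called, with a median of -0.01 and values from -0.17 to 0.23. HSP101, which pulls proteins out of aggregates, had 202 and 176 TPM in wild type against 205 and 172 TPM in prp43a. HSP90.1, the heat-inducible cytosolic HSP90, had 1728 and 1368 TPM against 1478 and 1257 TPM. The highest value of the list was that of mtHsc70-1, a mitochondrial HSP70, with 246 and 231 TPM in wild type against 267 and 294 TPM in prp43a. Its difference of 0.23 (95% interval 0.03 to 0.43) had an unadjusted p of 0.026 and a limma adjusted p of 1.00.

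Of 23 heat shock factors and related regulators 20 were expressed and 0 were called, with a median of 0.00. HSFA2, a factor that sustains the response, had 94.8 and 80.6 TPM in wild type against 81.2 and 79.8 TPM in prp43a. MBF1C, a coactivator of thermotolerance, had 215 and 166 TPM against 181 and 149 TPM. DREB2A, a regulator of dehydration and heat genes, had 21.2 and 12.6 TPM against 18.9 and 19.0 TPM, and its interval of -0.72 to 1.11 was too wide to bound a 2-fold rise. Of 22 genes of the unfolded protein response, which serves the endoplasmic reticulum, 0 were called and the median was 0.03. BIP2, its main chaperone, had 773 and 824 TPM in wild type against 809 and 819 TPM in prp43a. BZIP60, a transcription factor that itself is activated by splicing of its messenger outside the nucleus, had 38.3 and 40.2 TPM against 50.4 and 45.6 TPM, a log2 difference of 0.28 (95% interval -0.04 to 0.61).

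**Figure D4:**
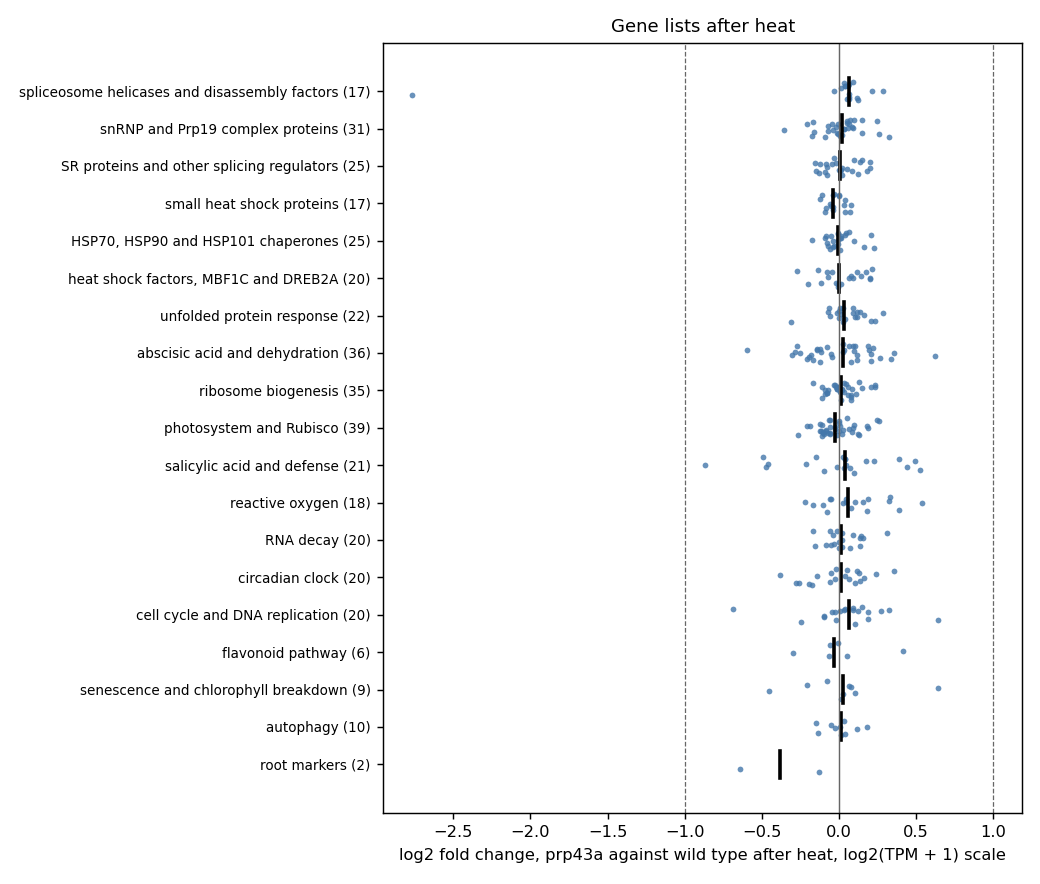
Log2 fold change of prp43a against wild type after heat (log2(TPM + 1) scale) for each expressed gene of 19 lists, with the number of genes in parentheses. Points are genes, black bars are list medians and dashed lines mark a 2-fold change; the medians lie between -0.04 and 0.06 except that of the 2 root markers, and AT3G62310, at -2.76, is the point far to the left.

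The abscisic acid and dehydration list, which serves the hormone of water deficit, had 36 of 43 loci expressed after heat, and 0 were called. Its median was 0.03, with values from -0.60 to 0.62, and the groups were apart for 11 of the 36, 5 higher and 6 lower, the same share as the 30.6% over all expressed genes. At control temperature 14 of 19697 genes had been called lower in prp43a (0.0711%). Of those 14, 7 passed the level required after heat and 7 did not, the latter with at most 1.62 TPM in any heat library. The list and the 14 genes were chosen with these libraries known and are no independent evidence.

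LTI65, a gene of dehydration and cold, stood at 3.53 and 4.55 TPM in heated wild type against 3.73 and 6.23 TPM in heated prp43a. In the control libraries it had stood at 28.1 and 34.7 TPM in wild type against 2.01 and 1.32 TPM in prp43a. The dehydrin RAB18_2 (AT5G66400), a hydrophilic protein of drying cells, stood at 7.04 and 9.75 TPM against 8.19 and 9.50 TPM after heat, and at 79.5 and 102 TPM against 11.7 and 7.91 TPM in the control libraries. For both genes the genotypes overlapped after heat and were apart at control temperature. The genotype effects at the 2 temperatures differed by 3.83 for LTI65 (SE 0.37) and by 3.18 for RAB18_2 (SE 0.31), both with a limma adjusted p of 0.013. These were the 2 genes of 19697 called for that difference (0.0102%), where 6.28% had an unadjusted p below 0.05, and both calls were lost in each fit that left out 1 library.

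For the other genes of that group, P5CS1, an enzyme of proline synthesis, had 11.4 and 11.2 TPM in heated wild type and 8.87 and 9.38 TPM in heated prp43a. LTP3, a lipid transfer protein, had 22.3 and 18.6 TPM against 15.8 and 10.9 TPM. Both were lower in each mutant library, with log2 differences of -0.28 (95% interval -0.62 to 0.05) and -0.60 (95% interval -1.22 to 0.03) that did not pass. AT2G41190, annotated as a transmembrane amino acid transporter, had 12.4 and 9.57 TPM against 12.3 and 11.6 TPM, and EGY3, a chloroplast protein related to proteases, 141 and 155 TPM against 163 and 144 TPM. In both the groups overlapped. Over all 18230 genes, the effects after heat and at control temperature, which share no library, correlated across genes at r = 0.03 (Spearman's rho 0.04), and 52.6% had the same sign. Among the 861 genes with an unadjusted p below 0.05 after heat, 483 (56.1%) had the same sign.

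The remaining lists had 0 calls. Of 39 photosystem and Rubisco genes the median was -0.03. PSAH2, a subunit of photosystem I, had 180 and 181 TPM in wild type against 203 and 230 TPM in prp43a, a difference of 0.26 (95% interval 0.08 to 0.44, limma adjusted p = 1.00). RBCS1A, the main gene of the Rubisco small subunit, had 12314 and 11678 TPM against 9605 and 12833 TPM. Reactive oxygen genes (18 of 19 expressed) had a median of 0.06. STZ, a zinc finger repressor of stress responses, had 27.7 and 21.9 TPM against 33.6 and 39.1 TPM. AOX1A, the alternative oxidase of mitochondria, had 72.0 and 60.6 TPM against 83.6 and 82.8 TPM. Both were higher in each mutant library, by 0.54 and 0.33, with unadjusted p of 0.035 and 0.043. The medians of the salicylic acid and defense list (21 of 23 expressed), the clock list (20 of 20) and the cell cycle list (20 of 21) were 0.04, 0.01 and 0.06. Their values ran from -0.87 to 0.52, from -0.38 to 0.36 and from -0.69 to 0.64. In the salicylic acid and defense list, 12 of 21 intervals (57.1%) lay inside a 2-fold change of TPM + 1, beside 88.9% over all expressed genes. LCL1, a clock-related MYB factor, had 76.8 and 80.5 TPM against 66.2 and 64.6 TPM, and PCNA1, the sliding clamp of DNA replication, 39.1 and 43.8 TPM against 46.6 and 53.9 TPM. The flavonoid, senescence and autophagy lists had medians of -0.03, 0.02 and 0.01, over 6 of 11, 9 of 13 and 10 of 10 loci. The 2 root markers that were expressed had values of -0.13 (PYK10) and -0.64 (SHR).

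The largest differences between groups that did not overlap were sought among genes that averaged 10 TPM or more in 1 of the groups. AT3G62310 was the lowest. The other 11 at the low end, from -0.73 to -1.14, and the 12 at the high end, from 0.74 to 2.47, did not pass. These genes were ranked by the same fold change that is given here. ATRZ-1A, a glycine-rich RNA-binding protein with a zinc finger, had 11.2 and 14.5 TPM in wild type against 26.6 and 25.1 TPM in prp43a, on 93 and 120 against 199 and 191 reads. Its log2 difference was 0.96 (95% interval 0.55 to 1.38, limma adjusted p = 0.58), and at control temperature it was 0.42. Each mutant library stood well above both wild-type libraries, and none of the alternatives called the gene.

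STR18, a sulfurtransferase, had 16.1 and 19.9 TPM in heated wild type and 8.69 and 10.5 TPM in heated prp43a, a log2 difference of -0.84 (95% interval -1.23 to -0.44, limma adjusted p = 0.67). In the control libraries it had 16.3 and 13.7 TPM against 8.89 and 8.60 TPM. The genotypes were apart at both temperatures, and no fit called it after heat. AT4G29260, annotated as an acid phosphatase of the HAD superfamily, had 10.8 and 12.1 TPM after heat against 6.51 and 6.40 TPM (-0.74, limma adjusted p = 0.58). The mitochondrial row AT2G07701_3 (ATMG01150) had 21.6 and 25.1 TPM against 10.1 and 9.92 TPM (-1.14, limma adjusted p = 0.59) and was listed at 0 in the 4 control libraries. Near-identical copies of mitochondrial sequence lie in the nuclear genome, so its reads may be split.

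Of the others, AT4G16983 rested on 1 library, and replicates lay far apart in several, among them SMZ, OSM34, AT4G02720 and AT5G25756. The wild-type libraries of AT4G02720 had 13.4 and 4.47 TPM, and AT5G25756 rested on 2 to 8 reads in a heat library. AT4G16983, an uncharacterized gene, had 0.469 TPM in wild-type heat replicate 1, was listed at 0 in replicate 2, and had 1.04 TPM in prp43a heat replicate 1 and 21.0 TPM in replicate 2. The last value was near the 20.3 to 24.8 TPM of the 4 control libraries. The wild-type libraries of SMZ, an AP2-type repressor of flowering, differed from each other, at 3.07 and 8.54 TPM, by more than the higher of them differed from the mutant values of 9.45 and 10.8 TPM. OSM34, an osmotin of stress responses, had 11.1 and 16.0 TPM against 4.70 and 9.23 TPM, with a 95% interval of -2.21 to 0.39. SPL13B, a transcription factor of the phase change to flowering, had 6.72 and 4.38 TPM against 10.4 and 9.71 TPM, a difference of 0.78 (limma adjusted p = 1.00).

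**Figure D5:**
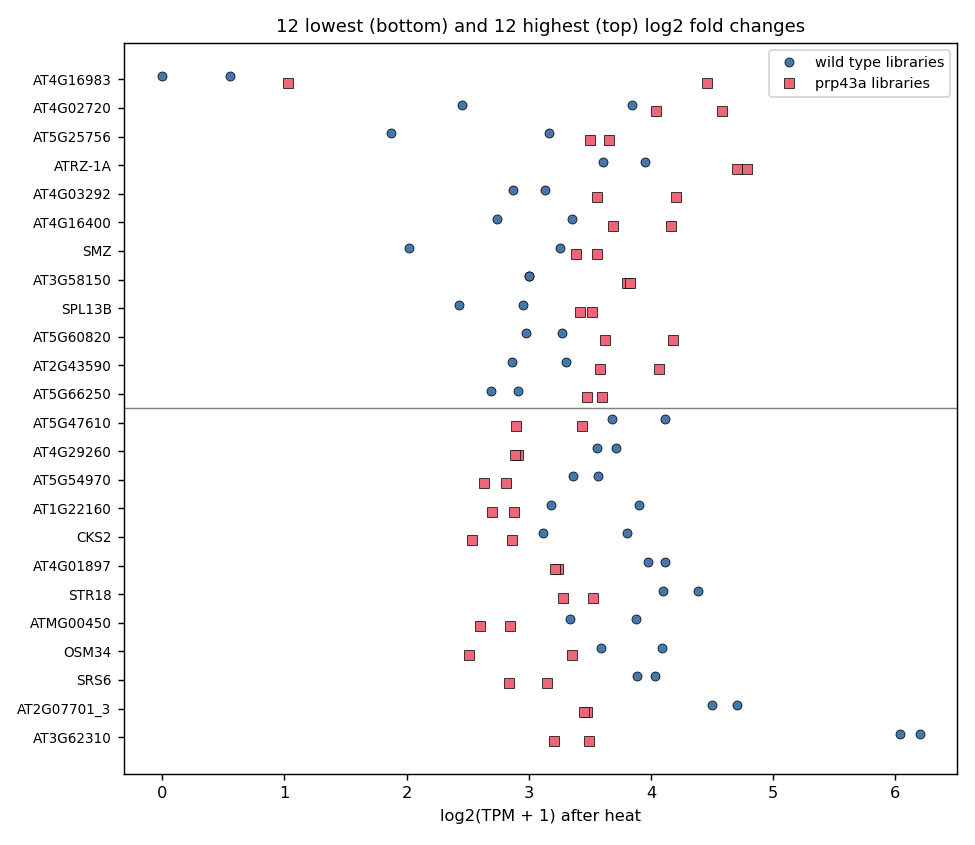
log2(TPM + 1) in the 4 heat libraries for the 12 lowest (below the line) and 12 highest (above the line) log2 fold changes among genes that averaged 10 TPM or more in 1 of the groups and whose groups did not overlap. Circles are wild-type and squares prp43a libraries; AT3G62310 has the widest gap, and AT4G16983 owes its place to 1 prp43a library.

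Genes listed at 0 in 1 genotype were few and low. Both wild-type heat libraries were at 0 and both prp43a libraries at 1 TPM or more for 15 genes, none with over 7 reads in a library. The reverse held for 13 genes, none with over 4 reads. No fold is given for them.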

How the data were processed

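The authors deposited 1 table of TPM values, with 1 column per library and 27655 gene rows, per the file headers. Per the submitters' processing notes, TAIR10 was the genome build. Neither the aligner nor the counter, annotation version or strand setting is given in the sources used here. Libraries were made with a stranded mRNA kit and read as pairs of 75 bases, per the labels' protocols. Such a kit selects polyadenylated RNA, which limits organelle transcripts. TPM are shares, so a rise of some genes lowers the rest.

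Groups were taken from sample titles. Genes with at least 1 TPM in at least 2 of 8 libraries (19697) entered a linear model on log2(TPM + 1) in limma 3.58.1 (R 4.3.3), with 1 mean for each of the groups (4 residual degrees of freedom), a trend of the spread with level, and Benjamini-Hochberg adjustment over all 19697 genes. The contrasts were prp43a against wild type after heat, the same at control temperature, and their difference. The fit was tested on simulated data, with the same spread set for all genes and no genotype effect at control temperature. What it recovered there need not hold for these libraries. Nothing says that the replicates were separate cultures, so the p-values measure only the spread between these libraries.

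With exon lengths from the TAIR10.1 annotation, 99.2% of 126947 values came out as whole reads within 0.05, among values up to 200 reads. Whether 1 unit is a read or a pair is not given.

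Beside both homologs, candidates for naming were the 5 genes on either side of AT3G62310. The 12 highest and 12 lowest log2 fold changes (mean of at least 10 TPM in a group, no overlap) were candidates too. So were the 3 largest changes per list with such a mean, all called genes, those called at control temperature, and the 5 highest in TPM. Not every candidate is named in the text. Others were named after their values were seen, for their role. The members, the 20 lists (425 loci) and the rules were chosen with earlier results of these data known.

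Alternatives were pseudocounts of 0.1 and 5, other filters, the heat libraries alone, a replicate block, median-of-ratios scaling, quantile normalization, no trend, voom on recovered reads, and leaving out each of the 8 libraries.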

Additional observations from a re-analysis of the deposited data

Results flagged for a closer look

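The genotype effect differed between temperatures, by the test of that difference, for LTI65 and RAB18_2 (AT5G66400). The effect after heat minus that at control temperature was 3.83 for LTI65 and 3.18 for RAB18_2 on the log2 scale (SE 0.37 and 0.31, limma adjusted p = 0.013 for both). Each gene was called in 7 of 18 alternatives, with adjusted p from 0.0037 to 0.21 for LTI65 and from 0.0037 to 0.34 for RAB18_2. All 4 heat libraries stood below both wild-type control libraries for both genes. Heated libraries of LTI65 rested on 20 to 34 reads and those of RAB18_2 on 21 to 29 reads.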

How the results depend on the processing

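AT3G62310 was called lower after heat in 20 of 21 alternatives, with log2 fold changes from -2.91 to -2.37 (limma adjusted p from 7.3e-08 to 0.60). The exception, added after seeing the data, was a fit of only the 4 heat libraries with the filter of all 8 (-2.76, adjusted p = 0.60), which called 0 genes (785 at an unadjusted p below 0.05); with a filter on the heat libraries that fit called 1. AT2G47250 was called in none, at 0.05 to 0.18. The mean of the genotype effects at both temperatures (added after seeing the data), a different contrast, called 4 genes: AT3G62310, RAB18_2, LTI65 and LEA4-5. For RAB18_2, LTI65 and LEA4-5 the log2 fold changes were 0.08, 0.22 and -0.40 after heat. At control temperature they were -3.10, -3.61 and -2.87, so these calls do not speak of heat. The number of genes called after heat, 1 as reported, was 2 with no filter and 6 with no trend. Leaving out each library gave 1 to 3: without prp43a heat replicate 1 AT4G16983 was added, and without prp43a heat replicate 2 AT5G11975 and psbI. A lone library was then assumed to vary like the other groups. The genes added with no trend (AT1G62886, AT2G02455, AT2G07625, AT5G05220 and AT5G37793) had at most 9 reads in a heat library. The count for the difference between temperatures, 2 as reported, was 0 with a pseudocount of 0.1 (1228 at an unadjusted p below 0.05), with no filter (1491) and with no trend (1229), 7 with a pseudocount of 5, and 4 with the filter at 5 TPM; it was 0 whichever library was left out (0 to 0, with 866 to 1612 at an unadjusted p below 0.05). Replicate numbers did not pair the samples (correlation of deviations -0.01 after heat and 0.03 at control temperature); with the replicate block the counts were 1 after heat and 4 for the difference. Of the named genes called in neither fit, 25 changed sign under some alternative, in 46 values of at most 0.30. The causes were not tested. Intervals were widest for genes under 5 TPM, of which 59.5% had one inside a 2-fold change of TPM + 1.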
